A study of Mus musculus with 6 samples.

Results

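The genes described here are 45 genes of the unfolded protein response and the integrated stress response. They are known targets of 2 stress pathways and were listed by name, at a time when earlier results of these data were known. Of the 45 genes, 20 belong to the PERK-ATF4 arm and 25 to the ATF6-XBP1 arm, the latter made up of 15 genes of protein folding in the endoplasmic reticulum (ER), 8 of ER degradation and translocation and 2 transcription factors. A probe was found for 43 of the 45 genes, out of 13675 gene symbols with a tested probe in the whole series. Pdia3 and Dnajb11 were not matched to a probe.

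RNA came from mouse dorsal root ganglia at postnatal day 4, small organs next to the spinal cord that hold the cell bodies of sensory neurons with their glia. There were 3 wild-type (WT) littermate controls and 3 dt27J animals, from 2 litters, all on the C57BL/6 background, with 1 Cy3 array each from 300 ng of total RNA. dt27J is an allele of Dst, which encodes dystonin, a large protein that links parts of the cytoskeleton, and its loss causes a sensory neuropathy in mice; the series calls this age pre-phenotype. The sources used here give neither the zygosity of the dt27J animals nor the part of Dst that the allele alters. The arrays carry 2 label dates, and each date is 1 slide: replicates 1 and 2 of both genotypes carry the first, and replicate 3 of both the second. Whether a date stands for a litter is not given in these sources.

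When proteins misfold in the ER, 3 sensors in its membrane respond. PERK phosphorylates the translation factor eIF2, which slows protein synthesis but favours translation of ATF4, a transcription factor that switches on amino acid synthesis, amino acid import and, in lasting stress, the death-linked factor CHOP. Other kinases that sense amino acid shortage, haem shortage or double-stranded RNA act on eIF2 as well, and their common output is the integrated stress response. The other sensors, IRE1 and ATF6, raise chaperones, folding enzymes and degradation genes, IRE1 by splicing the mRNA of XBP1 and ATF6 by being cut into a free transcription factor. Arrays measure RNA only, so phosphorylation, translation and cleavage were not measured. In whole ganglia, moreover, fewer cells of a type and less RNA per cell cannot be told apart.

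The outputs of the 2 arms are read from different DNA elements, and these are shown for the promoters on which the comparison below turns. The amino acid response element, to which ATF4 binds with C/EBP partners, was searched as TGATGNAA, and the ER stress element of chaperone genes as CCAAT, any 9 bases, then CCACG, on both strands of the 250 bases before each gene's start in RefSeq promoters of GRCm38.p6. In the sequences, written 5′ to 3′ on the gene's own strand, capitals mark the element; where it lies on the opposite strand, the capitals are its reverse complement.
Fgf21 (chr7:45615604-45615647, minus strand): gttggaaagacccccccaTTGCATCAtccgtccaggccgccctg
Slc7a11 (chr3:50443635-50443697, minus strand): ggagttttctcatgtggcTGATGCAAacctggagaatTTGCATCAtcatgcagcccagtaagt
Asns (chr6:7693210-7693250, minus strand): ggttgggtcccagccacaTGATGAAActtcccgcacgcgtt
Chac1 (chr2:119351031-119351074, plus strand): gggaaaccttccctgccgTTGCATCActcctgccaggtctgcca
Hspa5 (chr2:34772007-34772061, plus strand): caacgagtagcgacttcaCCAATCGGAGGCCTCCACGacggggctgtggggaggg
Creld2 (chr15:88819502-88819556, plus strand): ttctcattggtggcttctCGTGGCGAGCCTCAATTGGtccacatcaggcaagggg
Canx (chr11:50325782-50325836, minus strand): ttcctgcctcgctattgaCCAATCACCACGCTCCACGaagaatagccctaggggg

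The split between the arms was visible in these letters. An ER stress element was found in 9 of 40 members with a promoter in the table, 7 of them among 13 folding genes and 2 among 7 degradation genes, and in 0 of 19 genes of the PERK-ATF4 arm. Over all 32851 promoter windows of the same length the share was 0.113%, against 21.4% of the 42 member windows. The amino acid response element was found in 6 members, 5 of them in the PERK-ATF4 arm, and the sixth was Herpud1, a degradation gene; the share was 14.3% of member windows and 3.45% of all windows. The members were chosen as known targets of these pathways, so these shares describe the choice. The shorter end of the ER stress element, CCACG, which lies inside the full one, was in 69% of member windows and 28.3% of all, and the cyclic AMP element's core TGACG in 35.7% and 17.8%. The element TGACGTGG, which holds TGACG, was in 0 member windows and 0.563% of all. Eif4ebp1, Manf, Hyou1, Derl1 and Atf6 had no match in the promoter table.

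**Figure D1:**
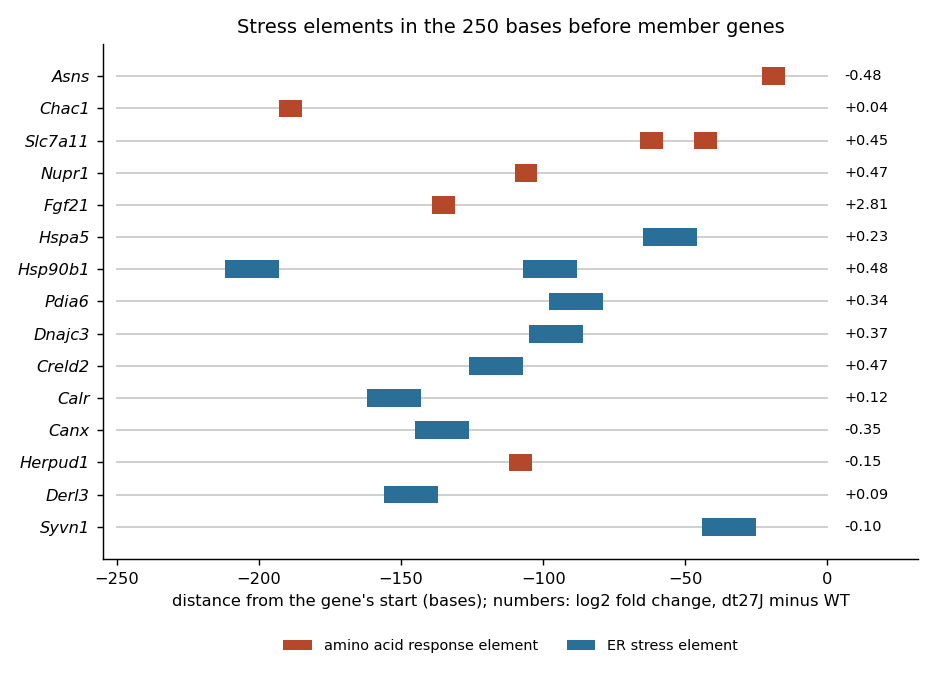
Positions of the 2 elements in the 250 bases before the start of the 15 member genes that hold one, with distance from the start on the horizontal axis in bases and the log2 fold change of the gene, dt27J minus WT, at the right. The amino acid response element (red) marks genes from Asns at -0.48 to Fgf21 at 2.81, and the ER stress element (blue) genes from Canx at -0.35 to Hsp90b1 at 0.48.

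Values below are log2 of the processed signal minus the 75th percentile of that array, so 0 is the level of a fairly bright probe. Differences are dt27J minus WT on that log2 scale with the standard error (SE) of a limma fit with the date as a term, and a gene was called when its p, adjusted over all 26248 tested probes, was under 0.05. For a probe to be tested, its signal had to be well above background throughout WT or throughout dt27J, that is on 3 of 3 arrays. A gene is given by its brightest tested probe, and a dimmer probe is named where it differs in sign or by over 0.2 or bears on a result.

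The arrays differed in more than genotype. The 15 skeletal muscle markers, all measured, had a mean level of -1.27 and -1.34 in WT 1 and WT 2, 0.50 in WT 3 and 0.52 to 1.59 in dt27J, with 6 called higher. The 12 measured spinal cord markers of 15 stood at -0.34 and -0.45 in WT 1 and WT 2, -3.83 in WT 3 and -4.14 to -3.81 in dt27J, so that WT 3 lay with the dt27J arrays and apart from the other WT arrays. The ganglion identity of the samples was clear from the sensory neuron markers, 14 of 15 measured, at 4.31 to 4.39 in WT and 3.47 to 4.10 in dt27J, where 13 of 14 differences were negative. Fibroblast markers stood at 3.24 to 3.62 in WT and 3.53 to 4.50 in dt27J, and adipocyte markers, 8 of 10 measured, at -0.40 to 1.02 and -0.49 to 1.54. Dst itself fell on its 3 probes, by 2.68, 2.42 and 2.46. The probes with 2.42 and 2.46 entered the test through WT only, with 2 of 3 dt27J arrays well above background. Their sizes are thus not measured folds. Over all tested probes, 344 (1.31%) were called higher and 494 (1.88%) lower in dt27J, a balance that was 537 to 440 after quantile normalization and 606 to 408 with arrays centred on their medians. Without WT 1, WT 2 or dt27J 1 the calls over all probes numbered 1, 0 and 0, with 4179, 4989 and 4475 probes at an unadjusted p under 0.05, so nearly every call here needs each of these 3 arrays.

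Among the stress genes Fgf21 alone passed the test, on a probe that entered it through dt27J only, and among probes well above background on all 6 arrays limma called 0 member probes (6 had an unadjusted p under 0.05). Of 70 tested member probes, 1 (1.43%) was called higher and 0 were called lower by limma, while 9 had an unadjusted p under 0.05. Those 9 were 6 probes of the PERK-ATF4 arm, 2 of ER degradation and translocation, 1 of Xbp1 and 0 of ER folding. Small positive differences were the common pattern. Of 43 measured members 31 (72.1%) had a positive difference, with a median of 0.19, whereas over all tested symbols 47.6% were positive with a median of -0.03. All 3 dt27J arrays lay above all 3 WT arrays on 12 of 70 member probes (17.1%, beside 12.8% of all tested probes), and below them on 2 (2.86%, beside 16.0%). Probes of 3 members, Fgf21, Slc7a11 and Stc2, entered the test only through dt27J, where they were bright enough, so they had to differ to be counted.

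**Figure D2:**
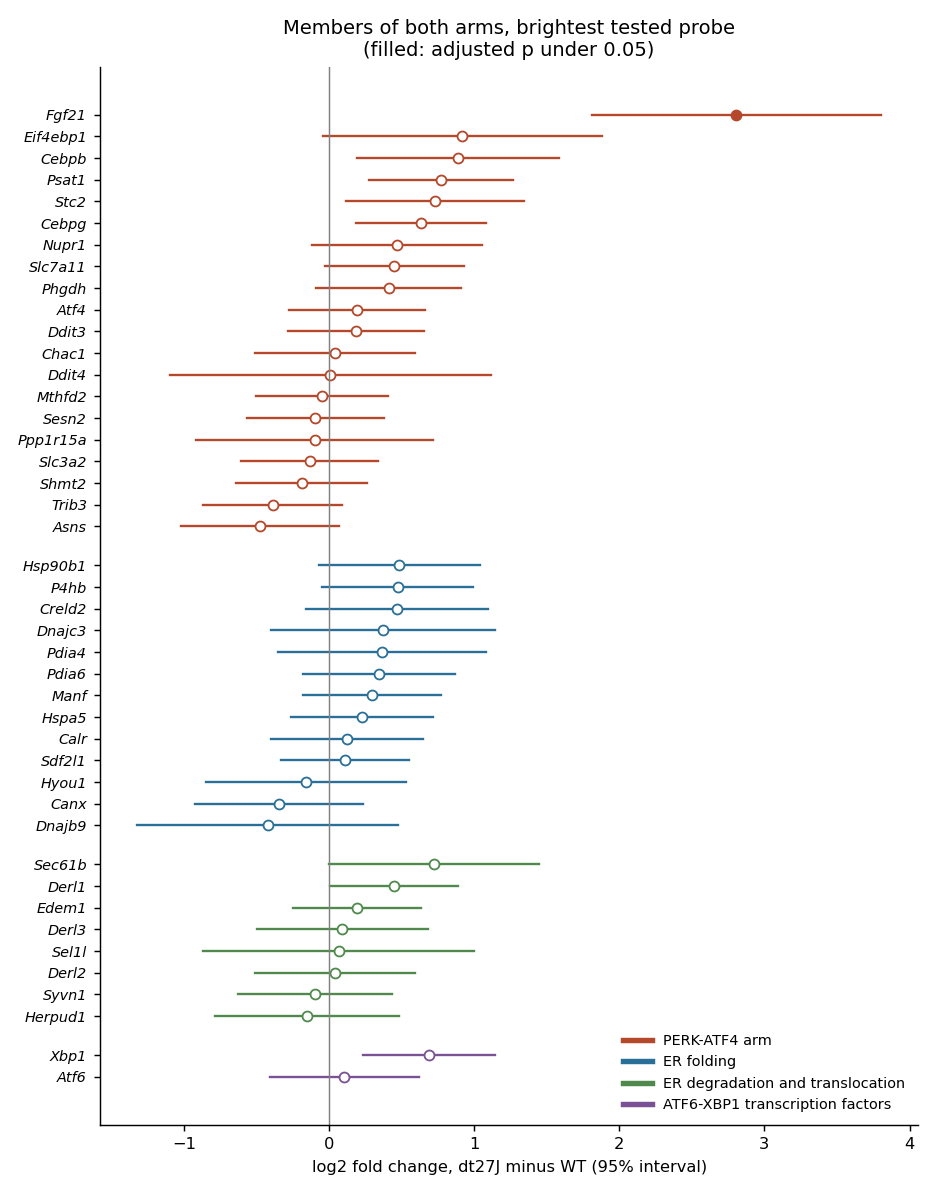
Difference between dt27J and WT on the log2 scale for each of the 43 measured members, by its brightest tested probe, with the 95% interval of the limma fit as a line; a filled point passed an adjusted p of 0.05. Fgf21 at 2.81 is the only filled point, and most of the other intervals cross 0.

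Fgf21 rose in the PERK-ATF4 arm, and the other 19 genes, of which none passed, differed in both directions. Of its 20 genes 13 had a positive and 7 a negative difference (median 0.19), and the mean level of the arm was 0.31 to 0.43 on the WT arrays and 0.62 to 0.79 on the dt27J arrays. Without Fgf21 the arm stood at 0.73 to 0.78 in WT and 0.88 to 1.03 in dt27J, and the groups did not overlap either way. Stc2, which also entered the test through dt27J only, stays in that mean, so the filter still favours the gap. These are descriptions, and the arm as a whole was not tested.

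Fgf21, which encodes a secreted metabolic hormone that ATF4 can switch on, rose. Its values were -6.58, -7.70 and -6.12 in WT 1 to 3 and -3.90, -3.74 and -4.34 in dt27J 1 to 3. All dt27J arrays lay far above all WT arrays, and the probe's signal cleared background well on all 3 dt27J arrays but on 1 of 3 WT arrays. The difference was 2.81 (SE 0.42, 95% interval 1.81 to 3.81, adjusted p = 0.0431, limma). Because WT 1 and WT 2 were not well above background, that size is not a measured fold; with these arrays set at the dimmest reading that cleared background on them, an alternative chosen after seeing the data, the difference was 1.63, or 3.09-fold. Within the first date it was 3.32 and within the second, with 1 array per genotype, 1.77. A second, dimmer probe, left untested because only dt27J had an array well above background, 1 of 3, read -7.59, -7.57 and -7.68 in WT and -5.88, -6.46 and -5.90 in dt27J. The size rests on signals near background: with the authors' deposited values the difference was 0.99 (adjusted p = 0.0394) and with normexp background correction 0.44 (adjusted p = 0.248). Without WT 1, WT 2, dt27J 1 or dt27J 2 the adjusted p was 0.248, 0.150, 0.177 or 0.0792, and it was 0.0586 without the date term and 0.0960 without the filter on dim probes, so the call holds under some settings only.

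Levels of other tissues' markers differed between the arrays too. The muscle markers stood at -1.27, -1.34 and 0.50 in WT 1 to 3 and 0.52, 1.59 and 1.37 in dt27J 1 to 3. These markers and Fgf21 were both lowest in WT 2 and highest in dt27J 2. WT 3, with muscle markers at 0.50, read -6.12 for Fgf21, and dt27J 1, with muscle markers at 0.52, read -3.90. Of the liver markers 2 of 10 were measured. Ahsg, a secreted liver protein, read -3.65, -3.77 and 1.80 in WT and -1.99, 0.23 and -4.51 in dt27J. Apoh, the other, read -2.79, -3.05 and -1.76 in WT and -3.63, -3.16 and -3.30 in dt27J. The part of these tissues in the Fgf21 difference was not tested.

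The transcription factors at the head of the arm differed little. Atf4, the arm's central activator, read 0.27, 0.31 and 0.44 in WT and 0.49, 0.25 and 0.86 in dt27J, with overlapping groups and a difference of 0.19 (SE 0.20, 95% interval -0.28 to 0.66, adjusted p = 0.558). Ddit3, which encodes CHOP, read -1.34, -1.01 and -1.71 in WT and -1.02, -0.90 and -1.59 in dt27J, again overlapping, with a difference of 0.18 (SE 0.20, adjusted p = 0.573). ATF4's own protein level is set largely by translation, which these values do not show.

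The C/EBP partners were the transcription factors of the arm with the larger differences. Cebpg, which pairs with ATF4, read -1.15, -1.08 and -1.27 in WT and -0.43, -0.63 and -0.53 in dt27J. The groups were clearly apart, but the difference of 0.63 (SE 0.19, adjusted p = 0.0924) missed the threshold; it was 0.58 in the first date and 0.74 in the second. Dimmer probes of Cebpg gave 0.36 and 0.52, with overlapping groups, and normexp correction gave the brightest probe 0.32 (adjusted p = 0.303). Cebpb, another partner that is also an inflammatory and tissue-repair factor, read -2.30, -1.97 and -2.74 in WT and -1.68, -1.61 and -1.05 in dt27J. All dt27J arrays were above WT, the difference was 0.89 (SE 0.29, adjusted p = 0.114), and it was 0.49 in the first date and 1.69 in the second. With normexp it was 0.23 (adjusted p = 0.479), and 0.62 (adjusted p = 0.119) once outlying local backgrounds were replaced.

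Several much-used reporters of ATF4 and CHOP activity had negative or near-zero differences. Asns, the asparagine synthetase gene whose element is shown above, read 6.06, 5.81 and 6.08 in WT and 5.59, 5.78 and 5.15 in dt27J. Every dt27J array was below every WT array, and the difference was -0.48 (SE 0.23, adjusted p = 0.230). Trib3, a pseudokinase that restrains ATF4, read -0.28, -0.32 and -0.60 in WT and -0.95, -0.63 and -0.80 in dt27J, also without overlap, with a difference of -0.39 (SE 0.20, adjusted p = 0.255) and of -0.52 on a dimmer probe. Neither passed the test.

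Chac1, an enzyme that breaks down glutathione, overlapped between groups at 1.1, 0.99 and 1.57 in WT and 1.23, 1.44 and 1.11 in dt27J, with a difference of 0.04 (95% interval -0.51 to 0.59). Sesn2, which restrains the growth kinase complex mTORC1 when amino acids are short, stood at -0.09 and turned to 0.01 with arrays centred on their medians. Ppp1r15a, which encodes the phosphatase subunit GADD34 that reverses eIF2 phosphorylation, stood at -0.10, with -0.49 in the first date and 0.67 in the second. Ddit4, another mTORC1 inhibitor, stood at 0.01 with a 95% interval of -1.1 to 1.11, and its WT arrays alone ran from 3.86 to 5.55. On all 4 genes the groups overlapped, and none passed the test.

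Of the serine and one-carbon enzymes, which ATF4 raises to feed nucleotide and glutathione synthesis, 1 stood apart. Psat1, the aminotransferase of serine synthesis, read 1.82, 2.12 and 2.20 in WT and 2.92, 2.55 and 2.97 in dt27J. The groups did not overlap and both dates gave 0.77, but the difference of 0.77 (SE 0.21, 95% interval 0.27 to 1.27, adjusted p = 0.0781) missed the threshold. It was past it after normexp correction, at 0.83 (adjusted p = 0.0479). Phgdh, the enzyme one step upstream, stood at 0.41 on its brightest probe, 0.21 on the next and -0.33 on the dimmest, so its probes disagreed in sign. Shmt2 and Mthfd2, mitochondrial one-carbon enzymes, stood at -0.19 and -0.05, both overlapping, and Mthfd2 turned to 0.05 with arrays centred on their medians.

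The cystine and amino acid carriers gave mixed readings. Slc7a11, the cystine importer, read -3.07, -3.06 and -2.61 in WT and -2.87, -2.64 and -1.89 in dt27J on its brightest probe, with overlap and a difference of 0.45 (SE 0.20, adjusted p = 0.205). A dimmer Slc7a11 probe read -5.69, -6.09 and -4.68 in WT, where 1 of 3 arrays was bright enough, and -3.91, -4.10 and -4.12 in dt27J. That probe entered the test through dt27J only, so its groups had to differ; the readings gave 1.44 (SE 0.32, adjusted p = 0.0573), and 1.1 with WT 1 and WT 2 at the dimmest reading that cleared background on them. Another Slc7a11 probe, not tested for its low signal, stood at -0.17. Slc3a2, the heavy chain that carries this importer to the membrane, stood at -0.14 with a 95% interval of -0.61 to 0.34, and at 0.03 on a dimmer probe.

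In the remaining targets the differences of the 2 dates were unlike. Eif4ebp1, which encodes a repressor of translation, read 1.46, 1.66 and 2.18 in WT and 3.15, 3.11 and 1.79 in dt27J. dt27J 1 and dt27J 2 were high and dt27J 3 lay among the WT arrays, so the difference was 0.92 (SE 0.40, adjusted p = 0.196), at 1.58 in the first date and -0.40 in the second. Nupr1, a small stress-induced chromatin protein, read 2.66, 2.40 and 1.32 in WT and 3.33, 3.24 and 1.21 in dt27J, lower on both arrays of the second date, with differences of 0.75 and -0.11 within the dates and 0.47 (adjusted p = 0.267) over both. Stc2, a secreted glycoprotein, cleared background well on 0 of 3 WT and 3 of 3 dt27J arrays. Its measured means were -5.64 in WT and -4.91 in dt27J (difference 0.73, SE 0.26, adjusted p = 0.130). The 95% interval was 0.12 to 1.34, and the difference was 0.99 in the first date and 0.21 in the second. With the WT arrays set at a floor the difference of means was 0.53, or 1.45-fold, which is not a lower limit. That floor is each WT array's own reading or, where higher, the dimmest reading of any probe that cleared background there. These sizes hold for this background correction and scaling only. The difference was 0.17 with normexp, 0.18 with outlying backgrounds replaced and 0.36 in the authors' deposited values, none past the threshold.

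**Figure D3:**
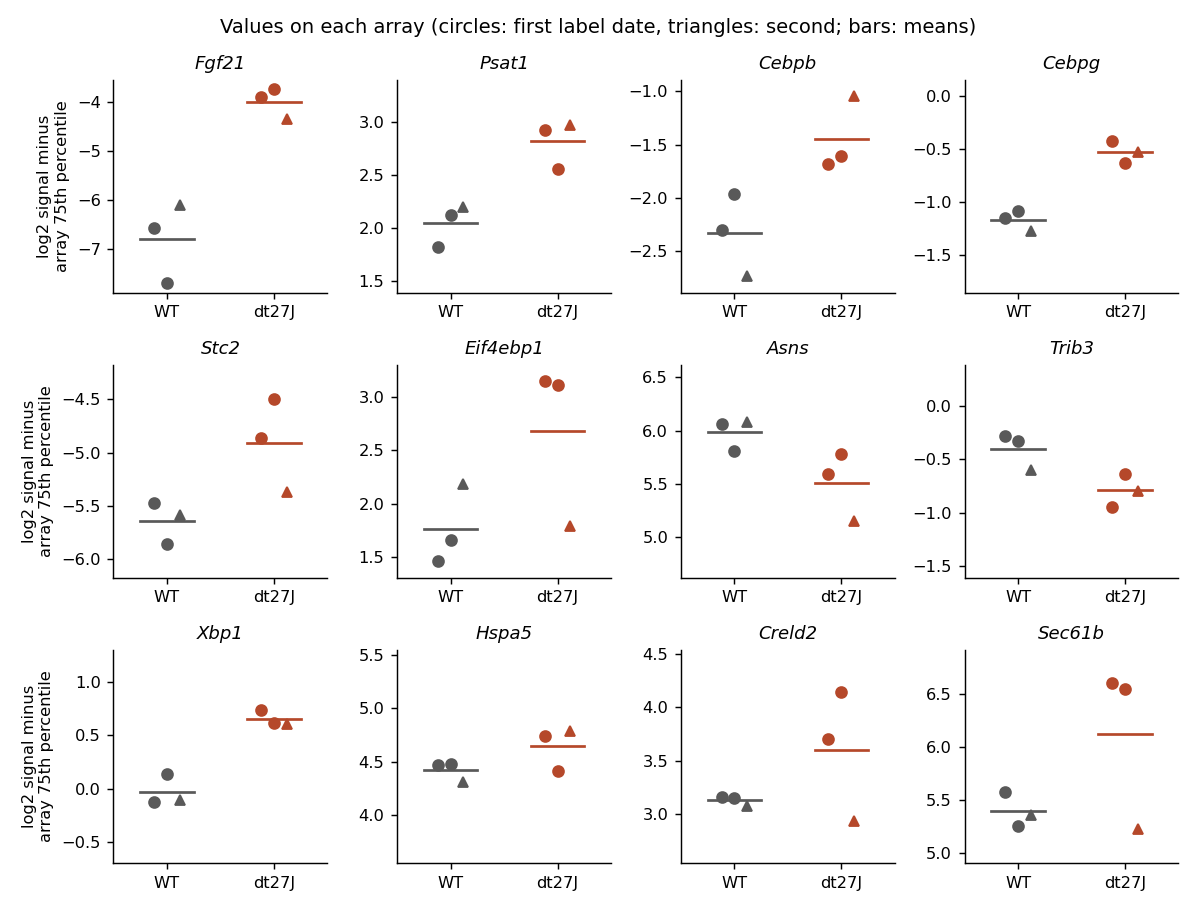
Log2 value minus the array's 75th percentile on each of the 6 arrays for 12 members, with circles for the first label date, triangles for the second and bars for genotype means; every vertical axis spans at least 2 log2 units. Fgf21, Psat1, Cebpb, Cebpg, Stc2 and Xbp1 have all dt27J arrays above WT, Asns and Trib3 all below, and in Eif4ebp1, Creld2 and Sec61b the dt27J array of the second date lies among the WT arrays or below them.

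In the ATF6-XBP1 arm, 0 of 42 tested probes were called in either direction by limma, and 3 had an unadjusted p under 0.05. Of 23 measured genes 18 had a positive difference, with a median of 0.19 and a range from -0.43 to 0.72. Xbp1 led among the transcription factors. The 1 Xbp1 probe read -0.13, 0.13 and -0.10 in WT and 0.73, 0.61 and 0.61 in dt27J. All dt27J arrays were above WT and the values within each group lay close together, with a difference of 0.69 (SE 0.19, 95% interval 0.23 to 1.14, adjusted p = 0.0820); it was 0.67 in the first date and 0.71 in the second. Where the probe lies relative to the segment that IRE1 removes was not examined, so the spliced form is not measured apart. Atf6, the sensor and factor itself, read 0.16, 0.16 and -0.17 in WT and 0.07, 0.03 and 0.37 in dt27J, overlapping, with a difference of 0.10 (SE 0.22).

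The folding genes had 10 positive and 3 negative differences among 13 measured, with a median of 0.30 and 0 called by limma, nor any unadjusted p under 0.05. Hspa5, which encodes BiP, the main ER chaperone and the gene most often read as a sign of ER stress, read 4.46, 4.48 and 4.31 in WT and 4.74, 4.41 and 4.79 in dt27J. One dt27J array lay below the highest WT array, and the difference was 0.23 (SE 0.21, 95% interval -0.26 to 0.72, adjusted p = 0.503). That interval corresponds to between 0.833 and 1.64 times the WT signal.

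Hsp90b1, the ER form of HSP90, read 6.13, 5.98 and 5.52 in WT and 6.14, 6.48 and 6.45 in dt27J, with groups just apart and a difference of 0.48 (SE 0.23, adjusted p = 0.232), and 0.45 on a dimmer probe whose dates went opposite ways (1.27 and -1.2). P4hb, a protein disulfide isomerase, read 2.50, 2.99 and 2.81 in WT and 3.33, 3.08 and 3.30 in dt27J, without overlap, with a difference of 0.47 (SE 0.22, adjusted p = 0.215), 0.46 in the first date and 0.50 in the second. Hsp90b1 and P4hb were the folding genes whose groups did not overlap. All dt27J arrays lay above all WT arrays on 2 of 24 tested folding probes and below them on 0. Over all tested probes these shares were 12.8% and 16.0%, so separation was not a mark of the folding genes.

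Other disulfide isomerases and co-chaperones overlapped. Pdia4 stood at 0.37, Pdia6 at 0.34 (-0.19 and 0.51 on dimmer probes) and Dnajc3, a J-domain co-chaperone of BiP, at 0.37, where 4 probes ranged from 0.25 to 0.43. The secreted ER proteins Creld2 and Manf stood at 0.47 and 0.30. Creld2 read 3.16, 3.15 and 3.08 in WT and 3.71, 4.15 and 2.93 in dt27J, so dt27J 3 was the lowest of the 6 arrays. Calr, the lectin chaperone calreticulin, stood at 0.12, and Sdf2l1, a partner of BiP, at 0.11.

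The negative folding genes were Dnajb9, Canx and Hyou1. Dnajb9, a co-chaperone and a target of spliced XBP1, read 0.59, 0.88 and 0.41 in WT and -0.56, 0.11 and 1.05 in dt27J, a spread over both groups, with a difference of -0.43 (SE 0.38), made up of -0.96 in the first date and 0.64 in the second. Its dimmer probes gave -0.34 and -0.27. Canx, the membrane-bound lectin chaperone calnexin, read 6.19, 6.09 and 5.87 in WT and 5.35, 5.73 and 6.03 in dt27J, with a difference of -0.35 (SE 0.24, adjusted p = 0.384), and dimmer probes gave 0.07 and -0.30. Hyou1, an ER relative of HSP70, stood at -0.16 with a 95% interval of -0.85 to 0.53. Xbp1 and its target Dnajb9 thus differed in sign in the first date and over both dates together. On their brightest probes both were positive in the second date, and neither gene passed the test over both dates.

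Degradation and translocation genes split likewise, with 6 positive and 2 negative differences, a median of 0.08 and 0 called by limma beside 2 with an unadjusted p under 0.05. Sec61b, a subunit of the channel that admits new proteins to the ER, read 5.57, 5.26 and 5.36 in WT and 6.6, 6.54 and 5.23 in dt27J. dt27J 1 and dt27J 2 were high and dt27J 3 was the lowest array, and the difference was 0.72 (SE 0.30, adjusted p = 0.180), at 1.15 and -0.13 within the dates. Derl1, a membrane protein of the export channel, read 2.09, 2.17 and 1.89 in WT and 2.65, 2.46 and 2.39 in dt27J, without overlap, with a difference of 0.45 (SE 0.19, adjusted p = 0.178). Its other 3 probes gave 0.07, 0.16 and 0.13 with overlap. Edem1, a lectin that marks glycoproteins for disposal, read 1.42, 1.31 and 1.18 in WT and 1.52, 1.47 and 1.49 in dt27J, just apart, with a difference of 0.19 (SE 0.19).

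Herpud1, a strongly stress-induced adaptor, read 3.07, 2.81 and 3.15 in WT and 3.08, 3.18 and 2.32 in dt27J, with dt27J 3 the lowest array and a difference of -0.15 (SE 0.27). Syvn1, the ubiquitin ligase of the pathway, stood at -0.10 and turned to 0.00 with median-centred arrays, and a very dim, untested probe of it stood at -1.54. Sel1l, the ligase's partner, stood at 0.06 with a 95% interval of -0.87 to 1.0. Derl2 and Derl3, relatives of Derl1, stood at 0.04 and 0.09, and a dimmer Derl2 probe stood at -0.37. None of these groups was apart on the brightest probe.

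Members with the same promoter element had differences of both signs. The 9 genes with an ER stress element had 7 positive and 2 negative differences, from -0.35 to 0.48, with a median of 0.23. The 6 genes with an amino acid response element had 4 positive and 2 negative differences, from -0.48 for Asns to 2.81 for Fgf21, with a median of 0.24. Asns, Chac1 and Fgf21, which all carry the element printed above, thus stood at -0.48, 0.04 and 2.81.

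The 2 dates gave different pictures for many members. Within the first date, 2 arrays against 2, the member median was 0.22 with 32 of 43 positive. Within the second, with 1 array per genotype and no test, it was 0.05 with 25 of 43 positive. Over all 13675 tested symbols the medians were 0.03 and -0.15, with 7095 and 5661 positive. The median was thus lower in the second date over all symbols too. The PERK-ATF4 arm had medians of 0.30 and -0.02, the folding genes 0.18 and 0.16, and the degradation genes 0.18 and -0.18. Fitted alone with limma, the first date called 12 of 70 member probes higher (17.1%, beside 12.7% of all tested probes) and 1 lower (1.43%, beside 13.2%). The 12 higher probes belonged to Fgf21, Slc7a11, Cebpg, Nupr1, Stc2, Eif4ebp1 (2 probes), Hsp90b1, Pdia6, Dnajc3, Creld2 and Sec61b, and the lower one to Canx. Of these 13 probes, 3 kept their sign in the second date, namely those of Fgf21, Slc7a11 and Stc2, and 10 turned. Those 3 probes entered the test through dt27J only, which asked for a bright dt27J array in the second date too. The filter thus favoured their equal sign, which is no separate support. In the first date the marker medians were -3.96 for spinal cord, 2.41 for muscle and 2.10 for adipocytes, and in the second -0.02, 0.59 and -1.20; their part in these differences was not tested.

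**Figure D4:**
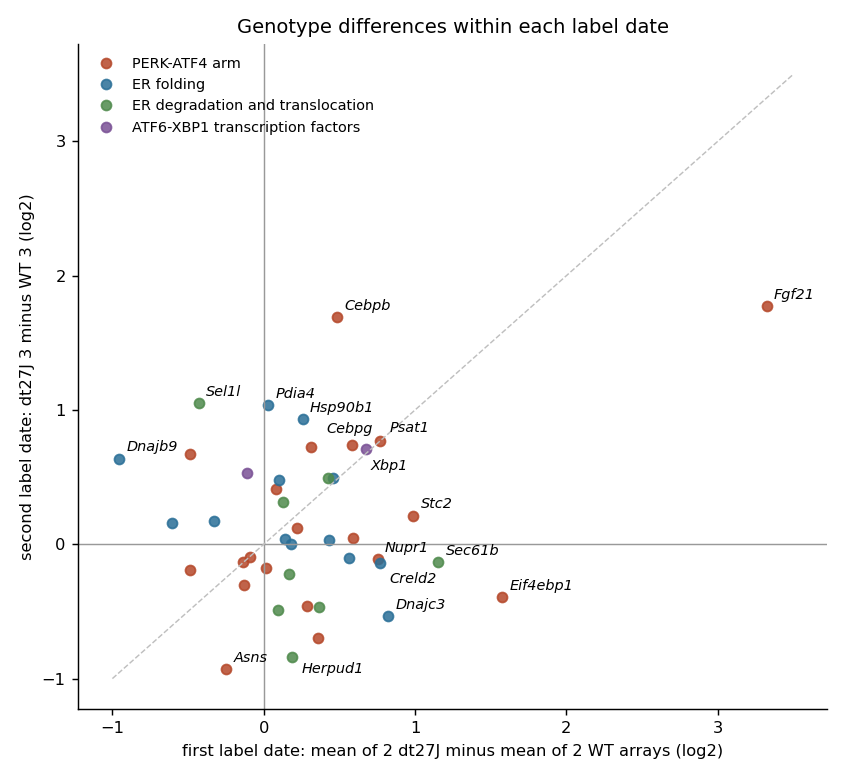
Difference between dt27J and WT within the first label date (horizontal axis, mean of 2 arrays per genotype) and within the second (vertical axis, 1 array per genotype), both log2, for the 43 measured members coloured by group, with a dashed line where both are equal. Fgf21, Psat1, Xbp1 and Cebpg are positive in both, whereas Eif4ebp1, Sec61b, Creld2 and Dnajc3 are positive in the first and negative in the second.

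A term for the difference between dates passed an adjusted p of 0.05 on 1 of 70 member probes (1.43%, beside 0.831% of all tested probes). That probe was the dimmer one of Eif4ebp1, which read -4.39, -4.52 and -2.48 in WT and -2.24, -2.46 and -3.39 in dt27J. WT 1 and WT 2 were low and WT 3 high, while dt27J 3 was the lowest of its group. On the brightest probes, 7 members had differences less than 0.1 apart between the dates, 5 of them positive and 2 negative. They were Psat1 (0.77 and 0.77), Xbp1 (0.67 and 0.71), P4hb (0.46 and 0.50), Derl1 (0.42 and 0.49), Ddit3 (0.22 and 0.12), Sesn2 (-0.09 and -0.10) and Slc3a2 (-0.14 and -0.13). None of the 7 was called over both dates.

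**Figure D5:**
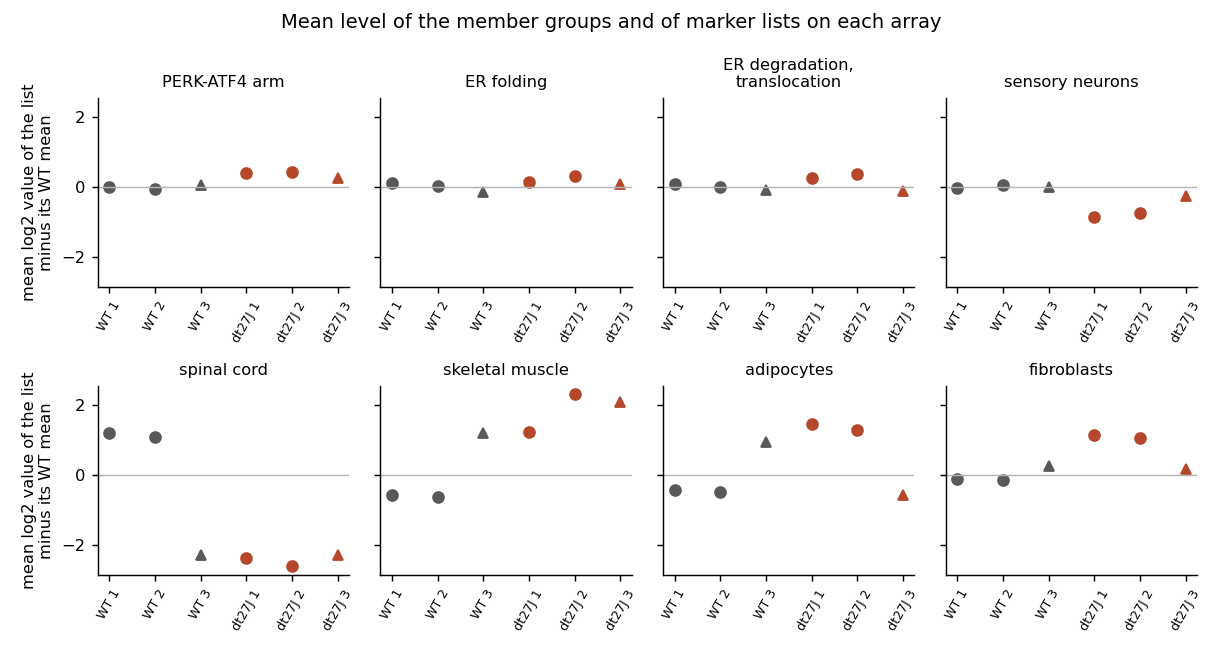
Mean log2 level of the member groups and of marker lists on each array, relative to the mean of the list over the WT arrays, with WT in grey, dt27J in red, circles for the first label date and triangles for the second. The PERK-ATF4 arm moves within 1 log2 unit, with dt27J above WT, while the spinal cord, muscle and adipocyte lists move by more and place WT 3 apart from WT 1 and WT 2.

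Genes of the same pathways outside the 45 also differed in both directions, and their lean varied from list to list. Of 14 measured genes of stress sensing and eIF2 control, the upstream part of the pathway, 0 were called by limma, 1 had an unadjusted p under 0.05, and the median was 0.06. Eif2ak1, the haem-sensing eIF2 kinase, stood at -0.65 (adjusted p = 0.152) and Eif2b5, the catalytic subunit of the factor that eIF2 phosphorylation blocks, at -0.41 (adjusted p = 0.218). Mbtps1, the protease that first cuts ATF6, stood at 0.51 (adjusted p = 0.262).

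Among 37 further ATF4 target genes 1 was called, and 14 (37.8%, beside 47.6% of all tested symbols) were positive and 23 negative, with a median of -0.07. In the PERK-ATF4 arm of the members 65% were positive, with a median of 0.19, so the lean depended on which targets were listed. Atf3, a transcription factor that many stresses and nerve injury induce, read -2.52, -2.41 and -2.45 in WT and -0.78, -1.02 and -0.88 in dt27J. The groups were far apart, and it rose by 1.56 (SE 0.19, adjusted p = 0.0377, limma), with 1.56 and 1.57 within the dates. Without WT 1, WT 2, dt27J 1 or dt27J 2, without the date term or without the filter, 0 of the 37 passed. Tnfrsf10b, a death receptor that CHOP induces, stood at -1.69 (adjusted p = 0.0710), and Slc6a9, a glycine carrier, at -0.78 (adjusted p = 0.0710). The Tnfrsf10b probe entered the test through WT only, since 2 dt27J arrays were well above background. It read -5.27, -7.03 and -5.18 in dt27J, near background, so its size is not a measured fold.

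The ER translocation, folding and glycosylation genes outside the members had 30 of 37 positive differences, a median of 0.20, 0 called by limma and 6 with an unadjusted p under 0.05. Stt3a, a catalytic subunit of the enzyme that adds sugar chains, read -1.49, -1.46 and -1.38 in WT and 0.14, -0.22 and -0.70 in dt27J, clearly apart, with a difference of 1.18 (SE 0.24, adjusted p = 0.0526). Sec62, of the translocation channel, stood at 0.68 and Txndc5, a disulfide isomerase, at 0.98, both with all dt27J arrays above WT. The median of this list was 0.36 in the first date and 0.02 in the second, and fibroblast markers, which mark secretory cells, had medians of 1.12 and -0.14; their part was not tested. Of 16 further degradation genes 8 were positive and 8 negative, with a median of 0.01 and 0 called by limma beside 1 with an unadjusted p under 0.05. Selenos, an ER membrane selenoprotein, was that gene, at 0.54 (adjusted p = 0.144), and Rnf139 and Faf2 stood at -0.36 and -0.34.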

How the data were processed

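Total RNA of 6 ganglion samples was measured on 1-colour Agilent arrays. Agilent Feature Extraction 10.5.1.1 made the deposited intensity values, per the file headers, with background subtracted and no scaling between arrays. A table of log2 values that the authors deposited is centred per probe over the 6 arrays (its column medians are -0.0041 to 0.0053); set against the scanner values, slopes were 0.93 to 0.98 over 9923 bright probes and 0.71 to 0.76 over all tested probes, so the direction matches and the scale does so for bright probes only; their normalization is not given in these sources.

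Control and outlier spots were left out and spots of a probe averaged. Probes were named by accession through a RefSeq table of GRCm38.p6, which named 19381 of 26248 tested probes (73.8%); the other 6867 stayed in the tests unnamed. The array annotation is of another build, so no gene coordinates were taken from it. The 75th percentile lay at signals of 369.5 to 580, 63.1% to 71.4% of 41174 probes were well above background, and 0 were saturated. Differences were fitted with limma 3.58.1 in R 4.3.3 (statmod 1.5.0), genotype plus label date, 3 residual degrees of freedom plus 3.74 from the prior, with Benjamini-Hochberg adjustment. The fit was also run on simulated data with known changes. Those data had less spread than the real arrays, no date difference and changes larger than those of most members. The simulation thus does not show how well the fit finds differences of the size seen here. Each array is 1 animal, and 3 arrays per genotype limit the precision.

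Every measured member may be named; of other pathway lists the 3 genes with the smallest p, and of marker lists the 2 brightest and the 2 with the smallest p. Markers of erythroid cells, macrophages, endothelium, cartilage, B cells and glia were summarised too; their medians were 0.29, 0.37, 0.73, -0.12, 0.46 and -0.05. The members and lists were chosen with earlier results of these data known. Alternatives were no date term, a replicate block, quantile and median scaling, normexp background correction with offset 50, the authors' values, other filters, array weights, single dates and leaving out each array. Protein sequences were not used here.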

Additional observations from a re-analysis of the deposited data

Results flagged for a closer look

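The genotype effect on the dimmer probe of Eif4ebp1, a repressor of translation, differed between the label dates by -3.01 on the log2 scale, the second minus the first (adjusted p = 0.0332, limma interaction term over all tested probes). It was 2.10 in the first date and -0.91 in the second. The brightest probe of the gene went the same way, at 1.58 and -0.40. The second date has 1 array per genotype, so its difference has no replicate.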

How the results depend on the processing

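The count of called member probes, 1 with the main settings, was 0 without the date term, 0 with a replicate block, 0 without a filter on dim probes, 0 among probes well above background on all 6 arrays, 2 after quantile normalization, 2 with median centring, 32 with array weights, 13 in the first date alone and 0 to 13 when each array was left out in turn. For the 838 probes called over all genes these settings gave 14 without the date term, 2 with a replicate block, 0 without the filter (8485 at an unadjusted p under 0.05), 12199 with array weights, 6805 in the first date and 0 to 6805 without single arrays (4989 unadjusted without WT 2 and 4475 without dt27J 1). Normexp gave 358, and 1433 once outlying local backgrounds were replaced, an alternative added after seeing the data. Called genes of the other pathway lists, 1 with the main settings, numbered 0 without the date term, with a replicate block or without the filter, 2 with median centring, the authors' values or the stricter filter, 3 with normexp backgrounds replaced, 37 with array weights, 20 in the first date and 0 to 20 without single arrays. The interaction count of 218 was 405 without the filter. Under both forms of normexp the 1 called member was Psat1 in place of Fgf21. WT and dt27J arrays of the same replicate number, which share a label date, deviated little together (r = 0.22, -0.15 and 0.06). With 3 arrays per genotype these values cannot tell whether the arrays were paired, for instance by litter. The replicate block gave Fgf21 an adjusted p of 0.108. The cause of these shifts was not tested. The member median of 0.19 ran from 0.05 in the second date alone to 0.29 with median centring. Over all tested symbols the median was -0.03 with the main settings and -0.15 in the second date alone.

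Differences near 0 changed sign. Median centring gave Syvn1 0.0023, Sesn2 0.0057 and Mthfd2 0.0502. Normexp gave Syvn1 0.017, Atf6 -0.014, Sel1l -0.18 and Mthfd2 0.0085, and with backgrounds replaced Ddit4 -0.0025 and Mthfd2 0.0008. Array weights, which put a weight of 67.4 on WT 1, gave Ddit4 -0.50, Slc3a2 0.034, Herpud1 0.024, Pdia4 -0.014, Atf6 -0.078, Sel1l -0.051 and Mthfd2 0.0019. The first date alone gave Syvn1 0.096, Herpud1 0.19, Atf6 -0.11, Sel1l -0.43 and Mthfd2 0.014. The mean over probes gave Derl2 -0.17. Leaving out single arrays moved Ddit4 between -0.58 and 0.39, Syvn1 between -0.25 and 0.096, Calr between -0.036 and 0.25, Hyou1 between -0.33 and 0.084, Herpud1 between -0.32 and 0.19, Derl2 between -0.16 and 0.17, Chac1 between -0.091 and 0.29, Sesn2 between -0.20 and 0.011, Atf6 between -0.11 and 0.18, Ppp1r15a between -0.49 and 0.21, Sel1l between -0.43 and 0.44, Mthfd2 between -0.13 and 0.014 and Derl3 between -0.068 and 0.37. Precision is limited by 3 arrays per genotype and, for Fgf21, Stc2 and the dimmer Slc7a11 probe, by WT signals near background.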
